A study of Homo sapiens with 6 samples.

Results

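The comparison described here sets the 2 arrays of HCT-116 cells transfected to overexpress variant 2 of Uc283+a against the 2 arrays of cells that received the empty vector (mock). These are 4 of the 6 arrays of the series, and the other 2 held variant 1. HCT-116 is a human colorectal carcinoma cell line, and both groups were transiently transfected, so the mock cells share the transfection and the vector but not the insert. Variant 2 carries a run of 9 T and variant 1 a run of 8 T in the same noncoding transcript. Probes were taken by name: human miRNA probes without the mismatch tag, and probes for transcripts of ultraconserved regions. By that rule 1777 of the 2997 probes in the table belonged to the comparison. Of these, 1741 miRNA probes and 32 ultraconserved-region probes were tested, 1773 in all, and 4 small nucleolar RNA probes were kept as controls.

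Most miRNAs are cut in the nucleus out of a long primary transcript by the Microprocessor, in which the nuclease Drosha works with the RNA-binding protein DGCR8, and the resulting hairpin is trimmed in the cytoplasm by Dicer. One strand is then loaded into an Argonaute protein and pairs with messenger RNAs mainly through its seed, the bases next to its 5′ end. Uc283+a is transcribed from an ultraconserved region, and the study transfected it to look for miRNAs that it affects. It has been reported to pair with the primary transcript of miR-195 and to hinder its cutting by Drosha.

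Signals are on the log2 scale, as the authors normalized them. A probe is called above background where, averaged over the 6 arrays, it lay over the 95th percentile that the 38 probes of random sequence reached on each array. By that measure 550 of the 1773 tested probes were above background: 358 of 1115 mature-named probes, 186 of 626 precursor-named probes and 6 of 32 ultraconserved-region probes. The names end in P or AP on the precursor-named probes, a suffix that is not explained in the labels. No probe carries the name Uc283, so how much of the transfected transcript the cells held is not analysed here. Of 19 epithelial and colon probes, 7 were above background, against 550 of all 1773 tested probes. The miR-200 family held 6 of these 7, and no probe of miR-192, miR-194 or miR-215, also on that list, was above background. Among the markers of other cells, 1 of 10 haematopoietic, 5 of 17 muscle, 7 of 11 neural, 3 of 10 fibroblast, 3 of 16 embryonic, 2 of 2 liver and 1 of 2 endothelial probes were above background. The labels do not call the replicates separate cultures, so the p-values below reflect just the spread among these arrays, and that spread may be technical.

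Mock replicate 1 and variant 2 replicate 2 stood apart from the other arrays. Over the 550 probes above background, the SD of the probe differences lay between 0.578 and 0.613 for every pair that held neither of these arrays, and between 0.704 and 0.849 for every pair that held at least one. The SD was 0.721 between both variant 2 arrays and 0.763 between both mock arrays, and it ran from 0.613 to 0.849 between a variant 2 and a mock array. The SDs between the groups thus spanned those within them. For the 20 probes above background named by p, and for several lists, values without both arrays are given below. Variant 2 replicate 1 had the highest background level, where the same percentile was 7.27, against 6.75 in variant 2 replicate 2 and 6.86 and 6.81 in the mock arrays.

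The mature sequences below belong to the probes with the smallest p-values that were lower with variant 2, with the seed (bases 2 to 8) in capitals. They come from RefSeq with the assembly GRCh38.p14, in which 299 of the 358 mature-named probes above background had a match.
hsa-miR-663b: gGUGGCCCggccgugccugagg
has-miR-7-1*: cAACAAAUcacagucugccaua
hsa-let-7a*: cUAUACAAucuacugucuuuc
hsa-miR-20a: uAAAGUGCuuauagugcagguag
hsa-miR-30c: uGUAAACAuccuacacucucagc
hsa-miR-21: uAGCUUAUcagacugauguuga
hsa-miR-500: uAAUCCUUgcuaccugggugaga
No seed is shared among them. In the annotation, miR-663b lies on chromosome 2 within ANKRD30BL, the miR-7-1 hairpin on chromosome 9 within HNRNPK, miR-20a on chromosome 13 in MIR17HG, miR-21 on chromosome 17 in VMP1 and miR-500 on chromosome X in CLCN5. Apart from miR-663b, with 81.8% G and C, these sequences held between 33.3% and 47.8% G and C.

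The same is shown for the mature-named probes that were higher with variant 2.
hsa-miR-1260b: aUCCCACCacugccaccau
hsa-miR-940: aAGGCAGGgcccccgcucccc
hsa-miR-3185: aGAAGAAGgcggucggucugcgg
hsa-miR-4301: uCCCACUAcuucacuuguga
hsa-miR-1264: cAAGUCUUauuugagcaccuguu
hsa-miR-1908 (3): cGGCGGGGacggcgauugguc
These also share no seed, and their G and C content ran from 39.1% in miR-1264 to 81.0% in miR-940. By annotation miR-1260b and miR-1908 lie on chromosome 11 within MAML2 and FADS1, miR-4301 on the same chromosome within DRD2, miR-3185 on chromosome 17 within PRAC2, miR-940 on chromosome 16 within MIR3677HG and miR-1264 on chromosome X within HTR2C.

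Across the whole comparison, no miRNA or ultraconserved-region probe passed the test. limma called 0 of 1773 probes (0.0%) at an adjusted p of 0.05, and the smallest adjusted p was 0.938. At an unadjusted p of 0.05 limma gave 40 probes higher (2.26%) and 45 lower (2.54%) with variant 2. Both variant 2 arrays lay above both mock arrays at 290 probes (16.4%) and below both at 301 probes (17.0%). Among the 550 probes above background these counts were 82 (14.9%) and 103 (18.7%). For a single probe, 2 arrays against 2 allow an exact two-sided permutation p no smaller than 0.333. The median difference was 0.01 over all tested probes and -0.05 over those above background, where 254 probes were higher and 296 lower. More than a 2-fold difference was seen at 26 of the probes above background, 9 higher and 17 lower. The median standard error of a difference was 0.44, and the probes named below are a ranking by p within a comparison that called none.

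**Figure D1:**
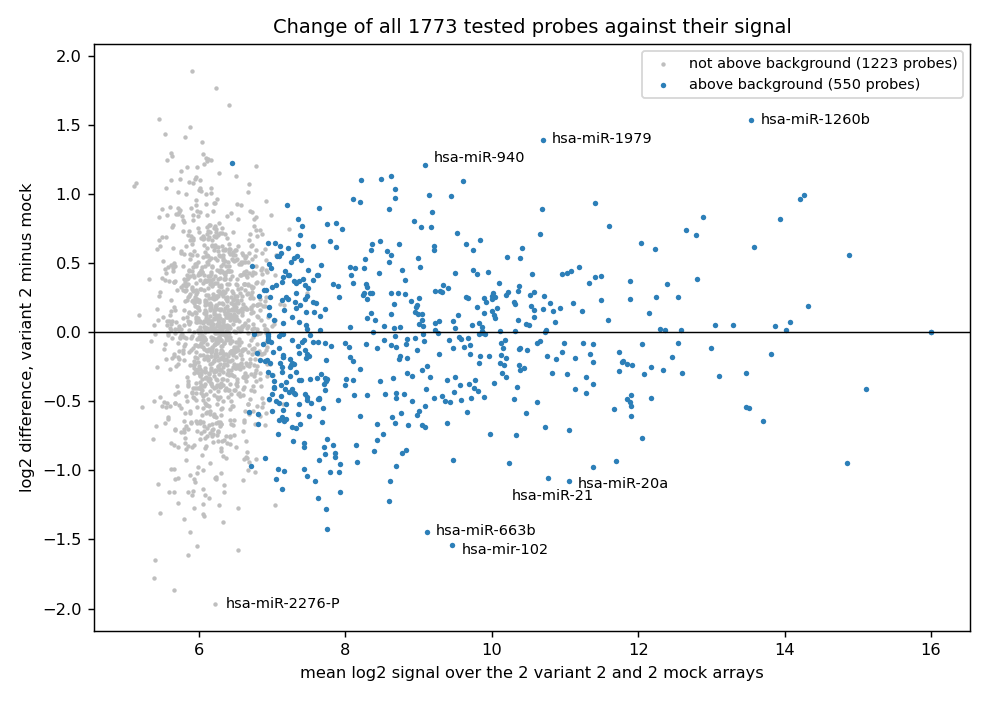
Log2 difference of variant 2 minus mock (vertical axis) against the mean log2 signal of the 4 arrays (horizontal axis) for the 1773 tested probes, in blue for the 550 above background and grey for the other 1223. The largest differences in either direction, such as -1.97 at hsa-miR-2276-P, lie at low signal, and hsa-miR-1260b stands highest among the brighter probes at 1.53.

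Among probes above background, the smallest p on the lower side was that of miR-663b, a primate miRNA, and the same side held miR-21, miR-20a and miR-30c, which are abundant in many tumour lines. The signal of hsa-miR-663b was 8.53 and 8.26 with variant 2, against 9.94 and 9.75 with mock. Both groups were tight and did not overlap, and the difference was -1.45 (SE 0.37, 95% interval -2.29 to -0.61, limma adjusted p = 0.938). Without mock replicate 1 and variant 2 replicate 2 it was -1.22. The probe hsa-mir-102, whose name is no longer in use, read 9.10 and 8.26 with variant 2 and 10.39 and 10.06 with mock, a difference of -1.54 (SE 0.42) that became -0.96 without those arrays. No RefSeq sequence is shown for it.

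miR-21 is the best known oncogenic miRNA and represses tumour suppressors such as PDCD4. Its probe read 10.33 and 10.15 with variant 2, against 11.47 and 11.12 with mock. The groups did not overlap, and hsa-miR-21 differed by -1.06 (95% interval -1.91 to -0.21, limma adjusted p = 0.938), and by -0.79 without the 2 arrays that stood apart. A mouse-named probe for the same miRNA, present on the same arrays, read 9.24 and 9.45 with variant 2 and 10.86 and 10.64 with mock, a difference of -1.41. This second probe shares the RNA and the arrays with the first and is no independent sample.

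miR-20a belongs to the miR-17/92 cluster, which MYC induces and which restrains cell cycle inhibitors such as CDKN1A. Its signal was 10.78 and 10.26 with variant 2, against 11.55 and 11.64 with mock. The difference was -1.08 (SE 0.38) for hsa-miR-20a, or -0.86 without the 2 arrays that stood apart, and -0.47 for its mouse-named probe. hsa-miR-30c, which shares its seed with the other miR-30 members, read 8.16 and 7.97 with variant 2, against 9.37 and 8.91 with mock. Its difference was -1.08, and it was -0.75 without the 2 arrays that stood apart.

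The other lower probes comprised passenger strands, precursor-named probes and hsa-miR-500. The passenger strand has-miR-7-1* read 7.22 and 6.85 with variant 2 and 7.97 and 8.93 with mock, and hsa-let-7a*, the passenger strand of let-7a, read 6.98 and 6.15 against 7.93 and 7.48. Their differences of -1.42 and -1.14 came with SEs of 0.44 and 0.43. Without the 2 arrays that stood apart the differences were -1.72 for has-miR-7-1* and -0.50 for hsa-let-7a*, and without mock replicate 2 that of has-miR-7-1* was -0.94. Without variant 2 replicate 2 that of hsa-let-7a* was -0.72. The precursor-named hsa-mir-212-P differed by -1.20 and hsa-mir-663-P by -0.95, and hsa-miR-500 by -0.97. Without the 2 arrays these values were -1.39, -0.71 and -0.78. The variant 2 readings of hsa-let-7a*, and those of hsa-miR-500 at 6.52 and 5.93, lay under the background levels of 7.27 and 6.75. Both probes were above background on average through the mock and variant 1 arrays, so their differences are no measured folds. On variant 2 replicate 1, has-miR-7-1* and hsa-mir-212-P also lay under background.

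On the higher side the largest and brightest difference was that of miR-1260b, whose sequence resembles a transfer RNA. Its probe read 14.74 and 13.86 with variant 2, against 12.51 and 13.03 with mock, a difference of 1.53 (SE 0.44, 95% interval 0.54 to 2.53, limma adjusted p = 0.938). The groups did not overlap, although the variant 2 arrays lay further apart than the mock arrays. Without the 2 arrays that stood apart the difference was 1.72. hsa-miR-1979, a name given to a fragment of a Y RNA, read 11.38 and 11.40 with variant 2 and 10.48 and 9.51 with mock. It differed by 1.39 (SE 0.43), by 1.87 without the arrays that stood apart, and by 0.91 without mock replicate 2.

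hsa-miR-940 read 9.54 and 9.83 with variant 2 and 8.16 and 8.79 with mock, a difference of 1.21 (SE 0.40) that became 0.75 without the arrays that stood apart. For hsa-miR-3185 the values were 9.08 and 9.30 with variant 2 and 8.04 and 8.08 with mock, and the groups did not overlap. The difference of hsa-miR-3185 was 1.13 (95% interval 0.30 to 1.96) and stayed at 0.99 without the arrays that stood apart. hsa-miR-4301 and hsa-miR-1264 differed by 1.11 and 1.10, and by 0.61 and 0.80 without the arrays that stood apart. Single arrays weighed on both: hsa-miR-4301 differed by 0.59 without mock replicate 1, and hsa-miR-1264 by 0.59 without variant 2 replicate 2. hsa-miR-1908 (3), a probe for a miRNA that lies in an intron of the fatty acid desaturase FADS1, differed by 0.90, and by 1.01 without the arrays that stood apart. Among the precursor-named and other probes, hsa-miR-1200-P differed by 1.11, hsa-miR-4302-AP by 0.97 and hsa-mir-594-A by 0.93, which became 0.78, 0.65 and 0.91 without those arrays. hsa-miR-4302-AP differed by 0.61 without mock replicate 1. hsa-mir-594-A read 11.84 and 11.92 with variant 2, against 10.95 and 10.93 with mock.

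**Figure D2:**
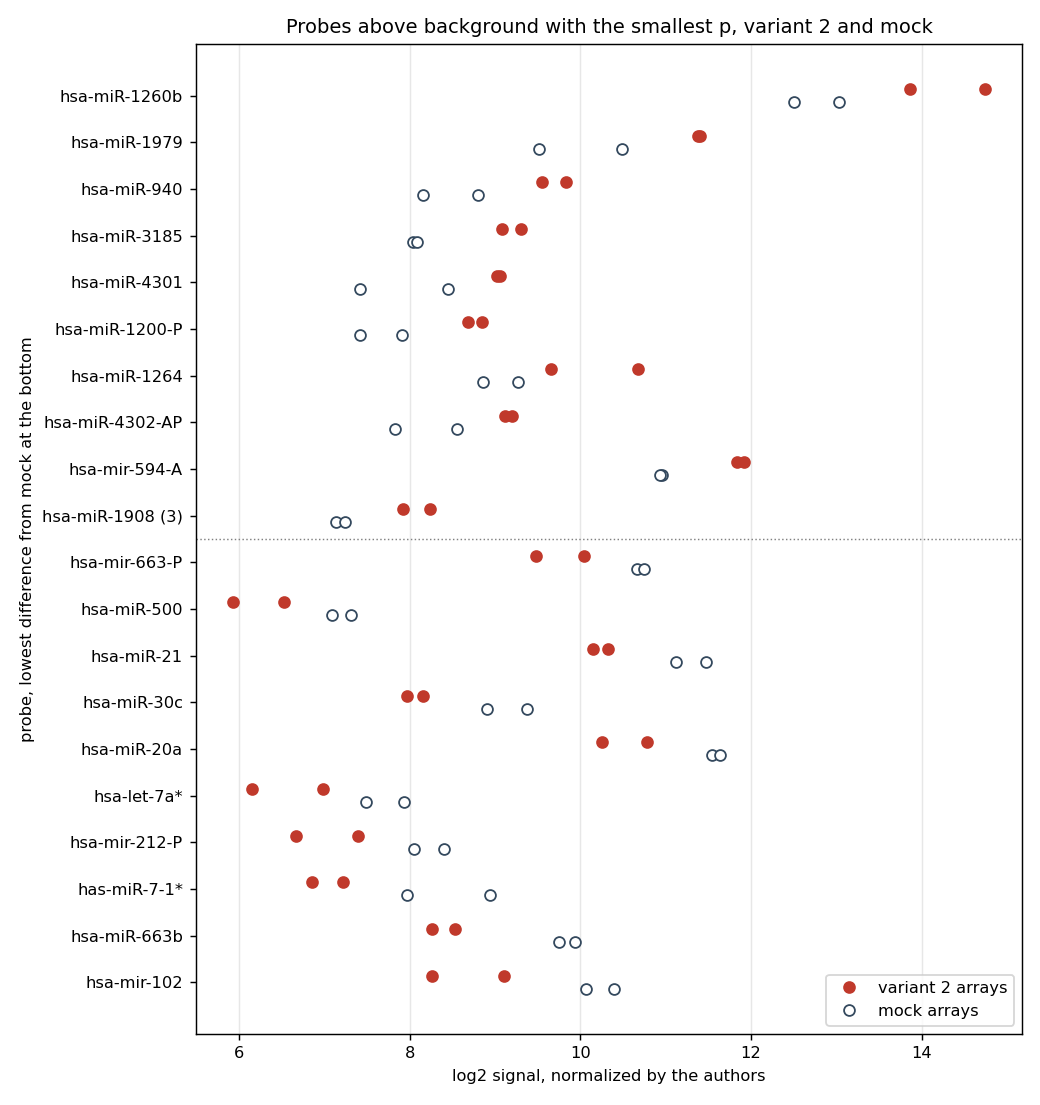
Log2 signal (horizontal axis) of the 10 higher and 10 lower probes above background with the smallest unadjusted p, with 1 point per array, filled for the 2 variant 2 arrays and open for the 2 mock arrays. The groups do not overlap at any of the 20 probes, as their choice by p favours, and hsa-miR-1260b is the brightest of them.

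Probes not above background gave larger differences, which are no measured folds. The lowest p-values on the lower side were those of hsa-miR-2276-P, uc.103+ and hsa-miR-4271, with differences of -1.97, -1.87 and -1.61. On the higher side they were those of hsa-miR-889-P, hsa-miR-4297 and hsa-mir-579-P, with 1.54, 1.49 and 1.41. The probe hsa-miR-2276-P read 5.45 and 5.01 with variant 2 and 6.57 and 7.83 with mock, and of these arrays only mock replicate 2 lay above its background level.

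The 12 brightest mature-named probes, without those above 15 on every array, mostly overlapped between the groups. hsa-miR-92a, of the miR-17/92 cluster, read 15.40 and 14.43 with variant 2 and 15.42 and 15.22 with mock. hsa-miR-92b read 14.02 and 13.44 with variant 2 and 13.56 and 14.22 with mock, so that the groups overlapped. The paralogs hsa-miR-23a and hsa-miR-23b differed by -0.29 and -0.65, with overlapping arrays for both. hsa-miR-212, a CREB-induced miRNA best known from neurons, was the steadiest of this set, at 14.05 and 14.01 with variant 2 and 14.12 and 13.91 with mock, and its difference was 0.01.

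hsa-miR-494 was the only one of the brightest probes besides hsa-miR-1260b whose groups did not overlap, at 13.85 and 14.84 with variant 2, against 13.79 and 13.26 with mock. The difference of hsa-miR-494 was 0.82 (SE 0.46), or 0.33 without variant 2 replicate 2, and its mouse-named probe differed by 0.73. hsa-miR-1280, a transfer RNA fragment by sequence, differed by 0.99, hsa-miR-923, a fragment of ribosomal RNA, by 0.96, hsa-miR-4313 by 0.61 and hsa-miR-553 by 0.56. Each of these 4 had overlapping groups. Without mock replicate 2, hsa-miR-553 differed by 1.39, and without mock replicate 1 by -0.27. hsa-miR-1268 differed by 0.05.

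The probes above background that share the miR-17 seed, and those of the miR-29 family, all read lower with variant 2, and none passed the test. The mature sequences of the members of the miR-17 seed group and of the miR-29 family are shown because members of each share the capital letters and lay on the same side.
hsa-miR-17: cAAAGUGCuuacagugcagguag
hsa-miR-93: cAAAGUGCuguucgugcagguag
hsa-miR-106a: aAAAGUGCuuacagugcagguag
hsa-miR-106b: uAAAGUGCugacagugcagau
hsa-miR-20b: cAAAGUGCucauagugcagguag
hsa-miR-29a: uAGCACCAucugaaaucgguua
hsa-miR-29b: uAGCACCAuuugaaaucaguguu
hsa-miR-29c: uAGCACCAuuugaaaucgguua
Probes for sequences this alike may bind one another's targets, so they are not independent measurements.

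With miR-20a, the 6 probes above background that carry the seed AAAGUGC were all lower, with a median of -0.66 and a range of -1.08 to -0.41. hsa-miR-106b read 9.30 and 8.71 with variant 2 and 9.88 and 9.98 with mock, a difference of -0.93. hsa-miR-106a read 10.09 and 9.83 against 10.89 and 10.52, which is -0.74, and hsa-miR-20b read 10.27 and 10.08 against 11.03 and 10.48, which is -0.58. In each of these the variant 2 arrays lay below both mock arrays, and without the arrays that stood apart hsa-miR-20b differed by -0.21. hsa-miR-17 and hsa-miR-93 differed by -0.41 and -0.46. The mouse-named probe of miR-17 differed by -1.11 and that of miR-20b by -0.84. These miRNAs come from 3 clusters on chromosomes 13, 7 and X. Of their cluster partners with another seed, hsa-miR-25, from the miR-106b/25 transcript in MCM7, differed by 0.01 and hsa-miR-92a by -0.41, and the difference between the seeds was not tested. In the lists as a whole, the miR-17/92 cluster had 3 probes higher and 10 lower (median -0.41, 3 of 13 above background), and the miR-106b/25 and miR-106a clusters had 7 and 7 (median -0.03).

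The miR-29 family represses collagens and the DNA methyltransferases DNMT3A and DNMT3B. All 7 probes with miR-29 in their name were lower with variant 2, with a median of -0.68 and a range of -0.90 to -0.27. Probes were sorted into families by name, so a probe under an older name, such as hsa-mir-102, was in no family. hsa-miR-29c read 8.81 and 8.67 with variant 2, against 9.87 and 8.97 with mock, and hsa-miR-29b read 7.44 and 8.02 against 9.24 and 7.85. Mock replicate 1 was high for this family. Without it hsa-miR-29c differed by -0.23 and the family's median was -0.40, and without mock replicate 2 it was -0.95. hsa-miR-29a differed by -0.32 with overlapping groups. The mouse-named probes of miR-29a and miR-29c differed by -0.57 and -0.88.

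The let-7 family, which represses RAS, MYC and HMGA2 and holds back proliferation, had 18 of 22 probes lower and 4 higher, with a median of -0.41. Among its 15 probes above background 14 were lower, with a median of -0.48, and at 8 of them the groups did not overlap. These counts hold hsa-let-7a*, whose variant 2 readings both lay under the background level. Over all 550 probes above background, 296 were lower and 103 (18.7%) lower without overlap. The main strands of the family share the seed of let-7a.
hsa-let-7a: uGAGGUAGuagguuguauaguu
hsa-let-7a read 11.74 and 11.45 with variant 2, against 12.08 and 12.32 with mock, a difference of -0.60. has-let-7b read 12.22 and 11.65 against 12.42 and 12.41, a difference of -0.48 that was -0.19 without the arrays that stood apart. The 8 probes with the seed GAGGUAG ranged from -0.93 to 0.20, and 7 were lower. The 4 probes with the seed UAUACAA were also lower, with a median of -0.44. They are for the passenger strands of let-7a, let-7b and, under duplicate names, let-7f-1. The mouse-named probes of let-7a and let-7b differed by -0.15 and -0.07, and the second reading of these members was closer to 0.

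Several smaller families had more probes lower than higher, and single arrays moved most of their medians. The miR-30 family had 3 higher and 8 lower probes with a median of -0.43, but the median was -0.01 without the arrays that stood apart. Its bright members hsa-miR-30b and hsa-miR-30d differed by -0.43 and -0.17, and hsa-miR-30b by -0.05 without variant 2 replicate 2. The miR-200 family, which keeps cells epithelial by repressing ZEB1 and ZEB2, had 3 higher and 7 lower probes and a median of -0.31, which was -0.07 without mock replicate 2 and -0.02 without the arrays that stood apart. Its brightest member hsa-miR-200c read 10.25 and 9.83 with variant 2 and 10.10 and 10.31 with mock, and hsa-miR-200b differed by -0.49. All 5 probes of the miR-103 and miR-107 family were lower, with a median of -0.34 that was -0.13 without the arrays that stood apart, and hsa-miR-103 and hsa-miR-107 differed by -0.53 and -0.37. hsa-miR-221 and hsa-miR-222, which repress the cell cycle inhibitor CDKN1B, read lower on both variant 2 arrays than on both mock arrays and differed by -0.29 and -0.54, or by -0.12 and -0.25 without the arrays that stood apart. The miR-23/27/24 clusters had 4 higher and 7 lower probes with a median of -0.28, which turned to 0.06 without mock replicate 2.

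Over all their probes, the medians of the other lists were -0.14 for the miR-10, miR-99, miR-100 and miR-125 families (6 higher, 9 lower), -0.03 for the miR-181 family (5 and 5), -0.05 for the miR-26 family (2 and 3), 0.05 for the miR-130 and miR-301 family (6 and 2), 0.06 for the miR-148 and miR-152 family (3 and 3), -0.05 for the miR-183, miR-96 and miR-182 cluster (3 and 3), -0.05 for the p53-induced miRNAs (9 and 10) and 0.10 for the miR-548 family (35 and 21). Above background, the p53-induced miRNAs had 1 probe higher and 6 lower (median -0.31) and the miR-181 family 1 and 4 (median -0.30). Each of these medians over all probes, except that of the miR-548 family, changed sign when at least one of the 4 arrays, or both that stood apart, were left out. The corresponding figures over all tested probes were 909 higher and 864 lower, with a median of 0.01. Among the marker lists, the medians were -0.11 for epithelial, 0.03 for haematopoietic, 0.16 for muscle, -0.44 for neural, -0.25 for fibroblast, 0.08 for embryonic, 0.57 for liver and 0.22 for endothelial probes. The liver value came from 2 probes, at -0.10 and 1.23, and was 0.15 without mock replicate 2. The probe at 1.23 lay under background on both mock arrays. The part of the markers in the other differences was not tested. No probe of any list passed the test.

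**Figure D3:**
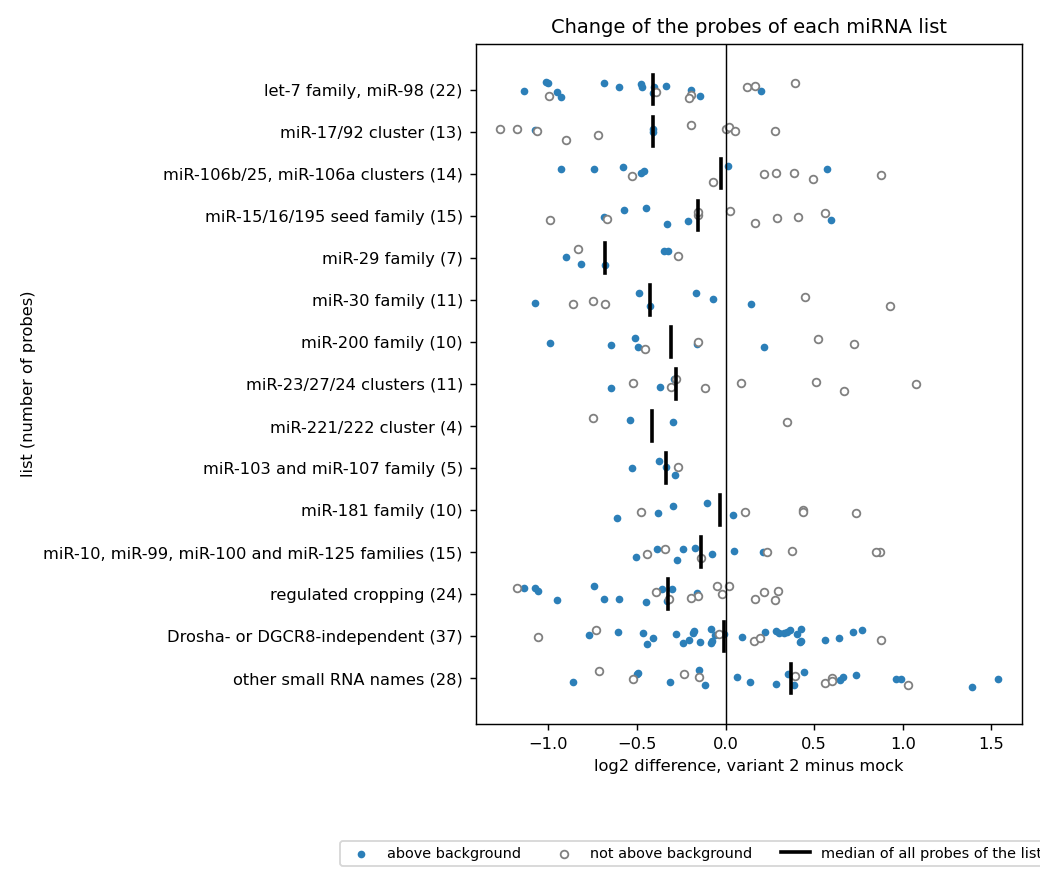
Log2 difference of variant 2 minus mock (horizontal axis) for each probe of 15 miRNA lists, filled where the probe was above background and open where it was not, with a bar at the median of the list. The miR-29 and let-7 bars lie at -0.68 and -0.41, and the bar of the names that overlap other small RNAs lies at 0.37.

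Many of the human miRNAs had a second reading from a mouse-named probe. Both probes were above background for 110 miRNAs. Of the 86 whose human probe was lower with variant 2, 69 were also lower by the mouse-named probe, and of the 24 that were higher, 12 were. Across these 110 pairs of probes the differences correlated with r = 0.39 (Spearman 0.36). The probes of a pair share the arrays, the RNA and mostly the sequence, so this describes how far a difference repeats from probe to probe and is no replicate.

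miR-195 and miR-497 are cut from one primary transcript, MIR497HG on chromosome 17, and carry the same seed as miR-15 and miR-16, which represses cyclins and BCL2.
hsa-miR-195: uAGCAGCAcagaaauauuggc
hsa-miR-497: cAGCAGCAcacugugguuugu
hsa-miR-195 read 8.98 and 8.46 with variant 2, against 9.35 and 9.23 with mock. Both variant 2 arrays lay below both mock arrays, and the difference was -0.57 (95% interval -1.45 to 0.31, limma adjusted p = 0.938). It was -0.31 without variant 2 replicate 2 and -0.25 without the 2 arrays that stood apart. hsa-miR-497 lay on the other side, with 9.83 and 10.26 for variant 2, against 9.61 and 9.28 for mock, a difference of 0.59 (SE 0.41) that was 0.38 without variant 2 replicate 2. The mouse-named probes gave -0.53 for miR-195 and 0.23 for miR-497. Their passenger strands were not above background and differed by -0.99 for hsa-miR-195* and -0.16 for hsa-miR-497*, and neither miRNA had a precursor-named probe. hsa-miR-15a, hsa-miR-15b and hsa-miR-16 differed by -0.21, -0.45 and -0.33, and their groups overlapped. The list of this family, which also holds passenger strands and miR-503 probes, had 6 higher and 9 lower probes. Its median was -0.16, and 0.02 without variant 2 replicate 2.

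A change in cutting by the Microprocessor would be read by setting mature-named against precursor-named probes of one miRNA, as far as the names hold. RNA was labelled by reverse transcription with random octamers, so a probe could read any RNA that contains its target, and the labels do not say which form each probe was designed to separate. With both probes above background there were 92 pairs, covering 89 mature-named probes. The mature-named probe differed more upward in 49 pairs and more downward in 43, and the median of mature minus precursor difference was 0.04. In 23 of the 92 pairs both variant 2 arrays lay above both mock arrays in this contrast, and in 19 of the 92 below. Of single probes above background, 14.9% lay higher and 18.7% lower without overlap. The counts of pairs were not tested against these shares. Both probes had the same sign in 45 of the 92 pairs.

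The most extreme pairs were miR-663b, miR-1200 and miR-4302 on the lower side and miR-1979, miR-1181 and miR-1300 on the higher side. For miR-663b the contrast was -1.98: hsa-miR-663b differed by -1.45, while hsa-miR-663b-P read 7.47 and 9.59 with variant 2 and 8.78 and 7.21 with mock. The precursor-named readings differed more between replicates than between groups. For miR-1200 and miR-4302 the contrast was -1.76 each, made of -0.65 at hsa-miR-1200 and 1.11 at hsa-miR-1200-P, and of -0.79 at hsa-miR-4302 and 0.97 at hsa-miR-4302-AP. hsa-miR-4302 read 6.96 and 6.81 with variant 2 and 7.76 and 7.58 with mock, and both probes of this pair had groups that did not overlap. For miR-1979 the contrast was 1.54, with -0.15 at hsa-miR-1979-P. For miR-1181 it was 1.40, with 0.35 at hsa-miR-1181 and -1.04 at hsa-miR-1181-P. For miR-1300 it was 1.34, with 0.99 at hsa-miR-1300 and -0.35 at hsa-miR-1300-P. hsa-miR-1300 read 9.46 and 10.42 with variant 2, against 10.37 and 7.54 with mock, and its difference was -0.43 without mock replicate 2.

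Of the 6 brightest pairs, miR-923, miR-1975, miR-1260b and miR-1273 had a contrast above 0 and miR-1259 one below 0, each without overlap between the groups. The contrasts were 0.89, 1.05, 1.25, 0.19 and -0.81. hsa-miR-1259 read 13.13 and 13.35 with variant 2, against 13.82 and 13.76 with mock, while hsa-miR-1259-P read 10.87 and 10.82 against 10.56 and 10.62. hsa-miR-1975, a Y RNA fragment, differed by 0.74, hsa-miR-1975-P by -0.31, hsa-miR-1260b-P by 0.28 and hsa-miR-923-P by 0.07. The pair of miR-1273 was made of 0.02 at hsa-miR-1273 and -0.18 at hsa-miR-1273-P. For miR-1268 the contrast was -0.14 with overlap, and hsa-miR-1268-P differed by 0.19.

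**Figure D4:**
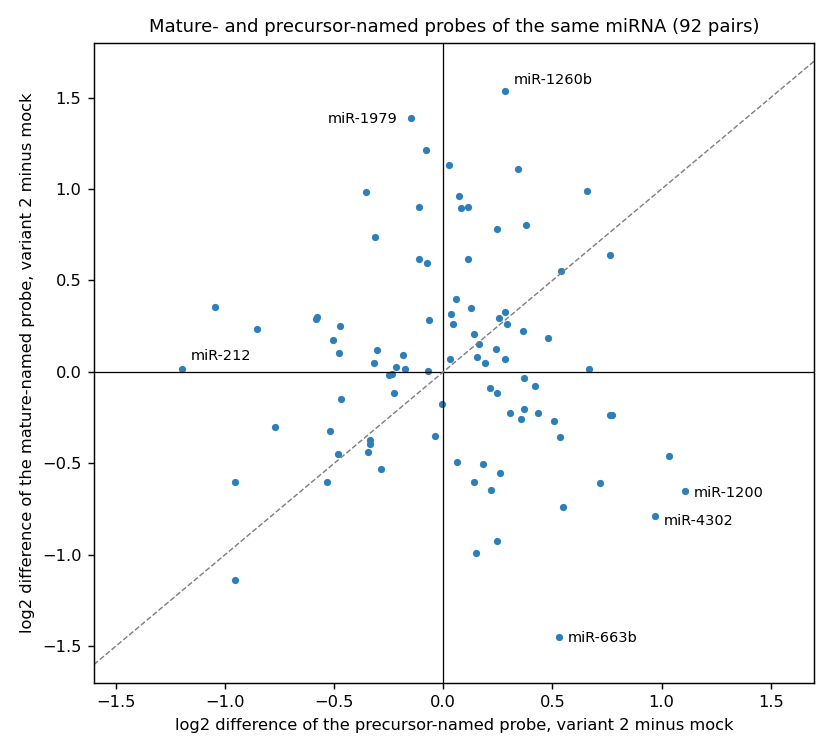
Log2 difference of variant 2 minus mock at the mature-named probe (vertical axis) against that at the precursor-named probe (horizontal axis) for 92 pairs of the same miRNA, with a dashed line where both are equal. The points lie on both sides of the line, 49 above and 43 below, and miR-663b lies farthest from it, at -1.98.

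The lists bearing on how a miRNA is made were read in the same way. For miRNAs whose Microprocessor cutting has reported regulators (p53, SMAD proteins, KSRP and hnRNP A1), 5 probes were higher and 19 lower, with a median of -0.32. All 12 of them above background were lower, with a median of -0.65, and at 8 of these the groups did not overlap, a count to be read against the 18.7% of all probes above background that were lower without overlap. This list holds hsa-miR-21, hsa-miR-20a and hsa-let-7a from above. Also in it is hsa-miR-26b, which read 11.38 and 11.14 with variant 2 and 11.44 and 11.40 with mock. Its 12 probes above background include hsa-let-7a*, which lay under background on both variant 2 arrays. For mirtrons and other miRNAs made without Drosha or DGCR8, 18 were higher and 19 lower, with a median of -0.01. Of the 31 probes of this list above background, 10 were higher and 5 lower without overlap. Over all probes above background these shares were 14.9% and 18.7%. The bright members hsa-miR-320c and hsa-miR-320e of this list differed by -0.77 and -0.08. The difference between these lists was not tested, and their members differ in family, base composition and signal.

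Names that overlap transfer RNA, Y RNA, vault RNA, the U2 RNA or snoRNA gave 18 probes higher and 10 lower, with a median of 0.37. Without mock replicate 1 the median was 0.17, and without the 2 arrays that stood apart 0.29. hsa-miR-1260b, hsa-miR-1979, hsa-miR-1280 and hsa-miR-1975 are in this list, with the differences given above and 0.74 for the last. The list also holds hsa-miR-1975-P at -0.31, and its differences ran from -0.86 to 1.53. Of its 19 probes above background, 13 were higher and 6 lower. Transfer RNAs, Y RNAs and vault RNAs are not cut by the Microprocessor.

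Ultraconserved-region probes were mostly dim. Of 32, 13 were higher and 19 lower with variant 2 (median -0.12). The 6 above background were all lower with a median of -0.58, against 296 lower of all 550 probes above background. Only 2 of the 6 lay above background on every array. uc.110+ lay under background on both variant 2 arrays, and uc.106+, uc.110+A and uc.111+ on variant 2 replicate 1. For these probes the choice rested partly on the mock and variant 1 arrays, and the shared direction was not tested. The brightest of the 6, uc.106+A, read 8.40 and 7.67 with variant 2 and 8.43 and 9.20 with mock. It differed by -0.78 (SE 0.47). uc.10+ read 7.66 and 7.12 against 8.18 and 7.56, with overlap. uc.103+ and uc.100+A, with the smallest p-values among these probes, were not above background and differed by -1.87 and -0.83. The small nucleolar RNA probes, which serve as loading controls on such arrays, were lower too. Their differences were -0.53 and -0.65 for U44 and -0.74 and -0.42 for U48. Without variant 2 replicate 2 they ranged from -0.05 to -0.55. Their part in the lower readings of the conserved families was not tested.

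Base composition moved with the difference. Over 298 mature-named probes above background with a RefSeq sequence, the difference correlated with G and C content with r = 0.24 (Spearman 0.26). The median was -0.29 for the 77 sequences with 40% to under 50% G and C, where 15 were higher and 62 lower, and 0.21 for the 32 with 70% or more, where 21 were higher and 11 lower. By pair of arrays, r was 0.25 and 0.29 for variant 2 replicate 2 against the mock arrays, and 0.01 and 0.10 for variant 2 replicate 1 against them. Within variant 2, replicate 1 minus replicate 2 correlated with G and C content with r = -0.25, so the relation rested mainly on variant 2 replicate 2. Its part in the list medians above was not tested. Of the 8 sequences of the miR-17 seed group and the miR-29 family printed above, 7 hold under 50% G and C.

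**Figure D5:**
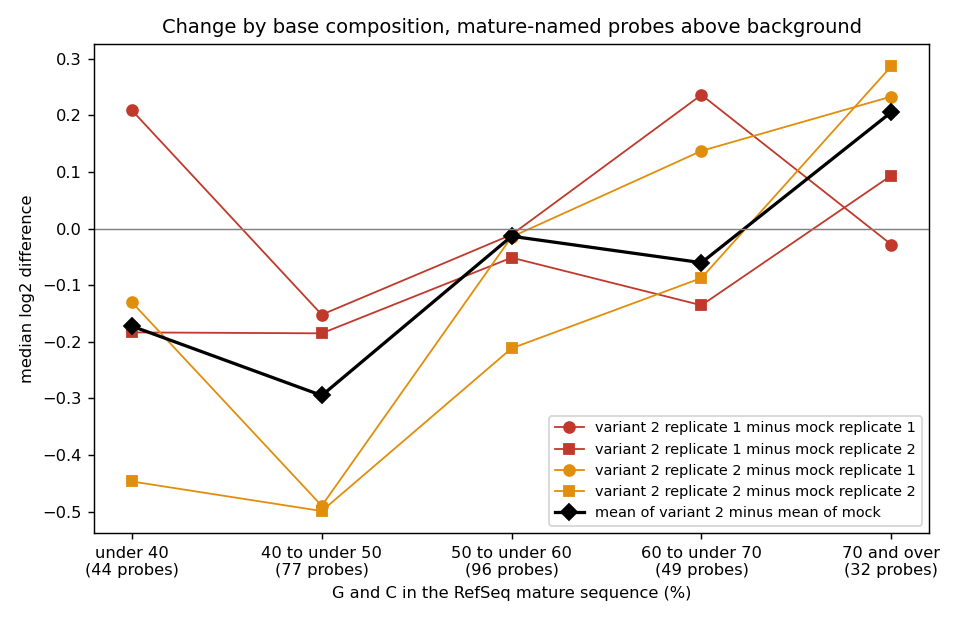
Median log2 difference (vertical axis) of 298 mature-named probes above background in 5 classes of G and C content of the RefSeq mature sequence (horizontal axis, %), for the group means in black and for each variant 2 array against each mock array in colour. The lines of variant 2 replicate 2, in orange, climb from left to right more than those of variant 2 replicate 1, in red.

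Whether a difference from mock also set variant 2 apart from variant 1 was tested directly. limma called 0 of 1773 probes (0.0%) between variant 2 and variant 1, the smallest adjusted p was 0.924, and an unadjusted p of 0.05 gave 43 probes higher (2.43%) and 45 lower (2.54%). Both variant 2 arrays lay above both variant 1 arrays at 312 probes (17.6%) and below both at 317 (17.9%). This comparison and the one with mock share the variant 2 arrays. For hsa-miR-21 the variant 1 arrays read 10.27 and 10.43, close to the variant 2 arrays, and the difference between the variants was -0.11. For hsa-miR-1260b it was -0.23, with variant 1 at 14.55 and 14.51. hsa-miR-663b was higher with variant 2 than with variant 1 by 0.78, since variant 1 read 7.54 and 7.68.

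The let-7 family was the list of conserved families with the lowest median between the variants among its probes above background, -0.61. hsa-let-7a* read 7.69 and 7.70 with variant 1, above both variant 2 readings, which lay under background, and hsa-let-7a read 12.11 and 12.38. For the miR-29 family that median was -0.005, and for the 6 probes with the seed AAAGUGC it was -0.22. On the higher side hsa-miR-3185, hsa-miR-940 and hsa-miR-1979 differed between the variants by 0.78, 0.84 and 0.67, and hsa-miR-4301 by 0.02. None of these passed the test.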

How the data were processed

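Total RNA of transiently transfected HCT-116 cells was extracted with Trizol, DNase-treated, and 4 µg per sample was labelled with a biotinylated random octamer primer by reverse transcription, per the labels' protocols. Each sample was read on a one-colour array. The deposited table holds log2 signals normalized by the authors. The base of the logarithm was read from the values, whose maxima lie just under the scanner ceiling. Per the submitters' processing notes limma was used, and its version is not stated there. How background was corrected, how arrays were normalized and what the probe suffixes mean is not given in the sources used here.

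limma 3.58.1 in R 4.3.3 was run on the 6 arrays together, with 1 mean for each group. Its p-values were two-sided and adjusted by Benjamini-Hochberg over 1773 probes, with a threshold of 0.05. Replicates were numbered in order of deposit, and the numbers pair no arrays. Precision is limited by the number of arrays. A probe was called above background where its mean over the 6 arrays lay over the 95th percentile that the 38 probes of random sequence reached, and 389 probes lay over it on every array. The 4 small nucleolar RNA probes that the rule also takes were kept as controls, and no probe was left out for low signal. For the choice of probes, a probe counted as at the ceiling where it read above 15 on all arrays, and 2 tested probes did. The fit was tested on simulated data.

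The probes and lists were chosen with earlier results of these data known. Named were, among probes above background, the 10 higher and 10 lower with the smallest p, 3 of each among dimmer probes, the 12 brightest mature-named probes below the ceiling, the 2 brightest members above background of 13 family and biogenesis lists, every miR-195 and miR-497 probe, 4 ultraconserved-region probes, and the 6 brightest and 6 most extreme pairs. Outside this rule, 7 probes were added after their values were seen because they share a printed seed. Alternatives covered the arrays in the fit, the variance prior, array weights, normalization, filters on dim probes, the probes tested and each array left out.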

Additional observations from a re-analysis of the deposited data

Results flagged for a closer look

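Probes with both variant 2 arrays on one side of the mock arrays and both variant 1 arrays on the other were looked for among the named probes, and 3 had that arrangement. The difference between the variants was tested with limma for each, and no adjusted p passed (0.924 for all 3), so none is shown to differ. hsa-miR-500 read 6.52 and 5.93 with variant 2, 7.59 and 7.68 with variant 1 and 7.08 and 7.30 with mock. Variant 2 minus variant 1 was -1.41, and both variant 2 readings lay under the background level. For has-let-7b the values were 12.22 and 11.65, then 12.47 and 12.62, and 12.42 and 12.41 with mock, and variant 2 minus variant 1 was -0.61. hsa-miR-1975-P read 13.15 and 12.74 with variant 2, 13.46 and 13.68 with variant 1 and 13.24 and 13.28 with mock, a difference between the variants of -0.63. Groups of 2 arrays are too small for a search for single outlying arrays.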

How the results depend on the processing

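Variant 2 against mock kept 0 calls in each of 16 alternatives and variant 2 against variant 1 in each of 15, with lowest adjusted p-values of 0.306 and 0.122. The lowest of them came without variant 2 replicate 2 and without variant 1 replicate 1. Of the 86 named probes, none passed the threshold in any alternative. The 26 probes named for a small p kept their direction throughout. Their groups did not overlap, so leaving out arrays could not reverse them. Of the other named probes, 29 changed direction when an array or the pair of arrays that stood apart was left out. Leaving out those arrays together was chosen after seeing the data. The lowest and highest differences over these alternatives were hsa-miR-1200 -1.32 to 0.013, hsa-miR-1260b-P -0.11 to 0.67, hsa-miR-1268 -0.57 to 0.66, hsa-miR-1268-P -0.61 to 0.98, hsa-miR-1273 -0.25 to 0.39, hsa-miR-1273-P -0.36 to 0.17, hsa-miR-1300 -0.43 to 2.40, hsa-miR-1300-P -1.12 to 0.41, hsa-miR-195* -2.36 to 0.37, hsa-miR-1979-P -0.68 to 0.16, hsa-miR-200b -0.79 to 0.013, hsa-miR-200c -0.37 to 0.046, hsa-miR-212 -0.093 to 0.14, hsa-miR-23a -0.71 to 0.12, hsa-miR-25 -0.26 to 0.29, hsa-miR-29a -0.56 to 0.11, hsa-miR-30d -0.46 to 0.31, hsa-miR-320e -0.21 to 0.0082, hsa-miR-4313 -0.064 to 1.29, hsa-miR-497* -0.65 to 0.25, hsa-miR-553 -0.27 to 1.39, hsa-miR-663b-P -0.53 to 1.59, hsa-miR-923-P -0.84 to 0.99, hsa-miR-92a -0.90 to 0.18, hsa-miR-92b -0.49 to 0.18, uc.10+ -0.79 to 0.10, hsa-miR-15a -0.64 to 0.21, hsa-miR-15b -1.23 to 0.33, hsa-miR-16 -1.23 to 0.97. No named probe reversed under another prior, weight, normalization, filter or probe set. List medians moved by more than the spread between replicates in 13 of 289 alternatives, over 9 lists. Without variant 2 replicate 2 the median of the miR-30 family was 0.06. Among probes above background only, the miR-106b/25 and miR-106a clusters had a median of -0.48, the miR-130 and miR-301 family -0.40, the miR-183, miR-96 and miR-182 cluster -0.58 and the epithelial probes -0.49. The cause was not tested. The number of arrays limits the precision, and 1223 of 1773 probes were not above background. No paired analysis was possible because the replicate numbers come from the order of deposit.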
